A study of Rattus norvegicus with 9 samples.

Results

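The 10 circadian clock genes Arntl, Clock, Npas2, Per1, Per2, Per3, Cry1, Nr1d1, Nr1d2 and Dbp were described in rat liver, chosen by their gene symbols from the 32883 genes of a deposited count table. All 10 had a row with that symbol, and all 10 passed the filter on low counts in each comparison. Liver RNA of 9 male Sprague-Dawley rats was sequenced, with 1 library per rat and 3 rats per group. The normal control rats (N1, N3 and N12) received no diethylnitrosamine (DEN), a liver carcinogen. The DEN model rats (M13, M17 and M24) and the PZH administration rats (G27, G28 and G42) received 0.01% DEN by injection over a model of 16 weeks, and the G rats were also given Pien-Tze-Huang (PZH), a traditional Chinese formula. The treatment label reads PZH for the M rats as well; they were taken as the DEN model because of the letter of their names and because the methods list 3 rats in each of 3 groups. The PZH dose of the sequenced rats, the week at which each was killed and their ages are not given in the sources used here. Liver tissue was sequenced, and whether it came from tumour nodules or from tissue around them is not given in the sources used here. A lower level in such tissue can come from fewer cells of a type or from less RNA per cell, and the 2 cannot be told apart.

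The clock is a feedback loop of transcription that runs in nearly every cell, and in liver it times metabolism over the day. The ARNTL protein (also called BMAL1) pairs with CLOCK or NPAS2 and switches on the Per, Cry, Nr1d and Dbp genes through E-box sequences; PER and CRY proteins then block that pair, while the NR1D receptors (REV-ERB) repress Arntl. As a result Arntl and Npas2 mRNA are out of phase with Nr1d1, Per3 and Dbp mRNA in the liver of rodents, so 1 sample of a liver reads the genes at 1 hour of the day. The rats lived under 12 h of light and 12 h of dark and were fasted before they were killed. The hour of killing is not given for any rat in the sources used here, and collection time and group cannot be told apart in this design.

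The upstream sequences below were picked because each holds a short DNA word of the kind through which the loop is known to act. They are the 250 bases before the RefSeq transcription start on the GRCr8 build, written 5′ to 3′ on the strand of the gene, with the words that were found in capitals. Of the 10 genes, 9 matched the RefSeq promoter table, with 11 start sites in all; Arntl is listed there as Bmal1, and Cry1 had no entry. The window of Arntl (chr1:176766078-176766327, plus strand) holds the ROR element TAGGTCA, the word that ROR and REV-ERB receptors bind, 16 bases before the start. That of Per2 (chr9:99496994-99497243, minus strand) holds a D-box, TTATGTAA, the word bound by DBP, 192 bases before the start, and the E-prime box CACGTT 62 bases before it. The window at the second start site of Nr1d1 (chr10:84229455-84229704, minus strand) holds the E-box CACGTG 191 bases before the start.
Arntl: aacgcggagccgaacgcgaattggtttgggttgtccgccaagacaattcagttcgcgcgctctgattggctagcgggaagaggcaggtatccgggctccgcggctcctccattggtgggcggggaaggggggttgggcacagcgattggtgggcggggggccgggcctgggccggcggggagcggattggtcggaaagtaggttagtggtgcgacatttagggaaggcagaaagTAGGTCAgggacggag
Per2: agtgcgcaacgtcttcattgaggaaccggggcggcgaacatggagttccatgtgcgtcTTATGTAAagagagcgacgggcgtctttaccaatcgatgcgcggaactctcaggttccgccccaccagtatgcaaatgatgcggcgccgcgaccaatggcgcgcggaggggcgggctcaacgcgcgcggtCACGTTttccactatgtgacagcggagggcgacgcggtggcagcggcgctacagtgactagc
Nr1d1: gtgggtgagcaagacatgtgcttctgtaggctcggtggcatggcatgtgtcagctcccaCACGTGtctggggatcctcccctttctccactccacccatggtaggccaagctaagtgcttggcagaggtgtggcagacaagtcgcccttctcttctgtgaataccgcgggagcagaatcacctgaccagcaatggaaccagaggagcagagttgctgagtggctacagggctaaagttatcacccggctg
The words were searched on both strands in windows that ran from 250 bases before to 50 bases after each start. The E-box CACGTG was held by 6.42% of all 33469 promoter windows, and among the clock genes by Nr1d1 alone. The E-prime box CACGTT was held by 4.83% of windows and by Per2 and Nr1d1, and the D-box (TTATGTAA or TTACGTAA) by 1.01% and by Per2. The ROR element (TAGGTCA or TGGGTCA) was held by 6.60% of windows and by Arntl. The CRE TGACGTCA was held by 1.83% of windows and by 0 of the 9 genes. The windows of Clock, Npas2, Per1, Per3, Nr1d2 and Dbp held none of these words. Such a match describes the letters of the window and does not show that a factor binds there.

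Library totals ran from 16115709 to 16412520 counts in the normal control rats, from 15259441 to 16641954 in the DEN model rats and from 14922973 to 27161496 in the PZH administration rats, with the highest total in G27. Levels are given as CPM, the reads of a gene relative to the scaled total of its library. The scaling used TMM factors, which set libraries level on the bulk of their genes; 3 counts correspond to 0.125 to 0.252 CPM. The TMM factors were 0.731 to 0.799 in normal control, 1.21 to 1.58 in DEN model and 0.863 to 0.941 in PZH administration rats, so the scaling itself differed between the groups. With library totals alone, the median over all genes of the log2 fold change moved by 0.86 in DEN against normal and by -0.67 in PZH against DEN; it moved by 0.23 in PZH against normal, and the calls of clock genes that change with it are given below. The labels give no shared culture or litter, and p-values measure the spread between these rats.

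**Figure D1:**
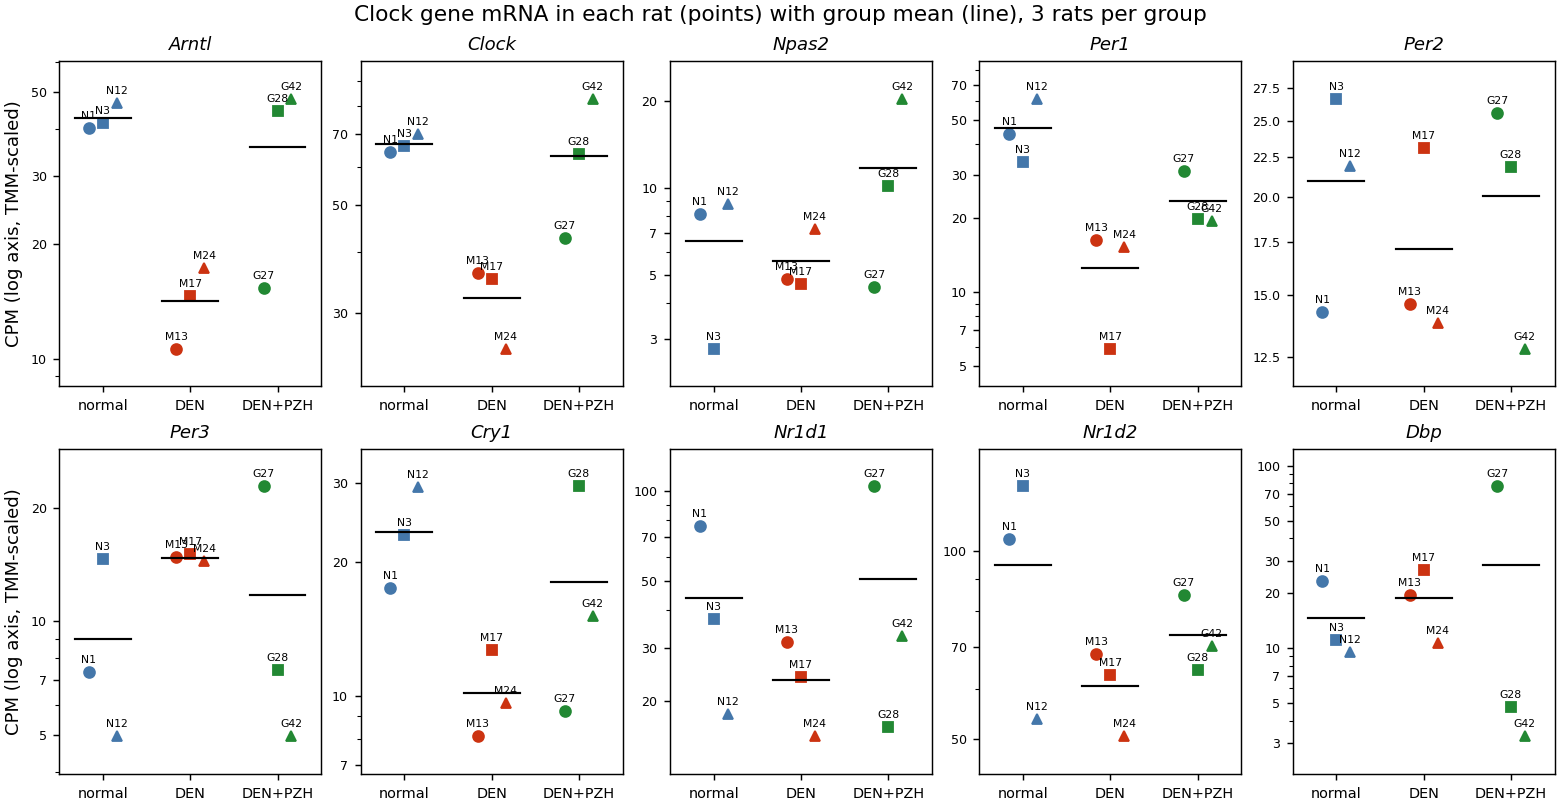
Each panel plots the level of 1 clock gene in CPM on a log axis for the 3 normal control, 3 DEN model (DEN) and 3 PZH administration (DEN+PZH) rats; points are rats and horizontal lines are group means. Arntl, Clock, Per1 and Cry1 do not overlap between normal and DEN rats, and G27 lies far from G28 and G42 in Arntl, Per3, Nr1d1 and Dbp.

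In DEN model livers, Arntl, Clock, Per1 and Cry1 fell against normal livers, and none of the 10 genes rose. These 4 hold the activating pair of the loop and a member of each repressor family that blocks it. The count of 4 in 10 was set beside all genes: 45.8% of the 14255 genes tested passed at an adjusted p under 0.05 (quasi-likelihood test in edgeR, Benjamini-Hochberg adjustment), 20.5% of those tested as lower and 25.3% as higher. The share of clock genes that passed was close to that of all genes. The same 4 genes had levels that did not overlap between the groups, beside 58.8% of all genes. The median log2 fold change of the 10 genes was -0.75, beside 0.03 for all genes tested.

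Arntl, which encodes the partner of CLOCK or NPAS2, stood at 40.1, 41.4 and 46.8 CPM in N1, N3 and N12. It stood at 10.6, 14.6 and 17.3 CPM in M13, M17 and M24. Every DEN rat was below every normal rat. The fall was 2.98-fold, a log2 fold change of -1.57 ± 0.21 (SE) with an adjusted p of 0.00081. It was the clock gene with the most even normal rats after Clock: its mean was 42.7 CPM ± 3.53 (SD, n = 3). Clock, which encodes the histone acetyltransferase partner of ARNTL, stood at 64.3, 66.1 and 70.0 CPM in normal and 36.2, 35.2 and 25.4 CPM in DEN rats. These groups did not overlap, and the log2 fold change was -1.03 ± 0.18 (adjusted p = 0.0025). Npas2, which can take the place of CLOCK in the pair, stood at 8.12, 2.77 and 8.77 CPM in normal and 4.84, 4.65 and 7.18 CPM in DEN rats. The DEN rats lay inside the range of the normal rats, and the log2 fold change of -0.22 had an adjusted p of 0.70.

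Among the repressors, Per1 stood at 44.1, 33.8 and 61.3 CPM in N1, N3 and N12 and at 16.3, 5.89 and 15.3 CPM in M13, M17 and M24. Its log2 fold change of -1.87 ± 0.38 (adjusted p = 0.0048) was the largest of the 10 genes in this comparison. Per1 is also known as a gene that glucocorticoids switch on directly. Cry1, the stronger transcriptional repressor of the cryptochrome pair, stood at 17.5, 23.0 and 29.4 CPM in normal and 8.10, 12.7 and 9.63 CPM in DEN rats. No DEN rat reached the lowest normal rat, and the log2 fold change was -1.19 ± 0.26 (adjusted p = 0.0069). Per2, which shares much of the role of Per1, did not pass: its levels were 14.3 to 26.7 CPM in normal and 13.8 to 23.1 CPM in DEN rats, with a log2 fold change of -0.27 and an adjusted p of 0.47. Per3, whose loss leaves the loop running in mice, stood at 7.34, 14.6 and 4.96 CPM in normal and at 14.8, 15 and 14.4 CPM in DEN rats. The DEN rats were nearly equal and N3 was beside them; the log2 fold change of 0.73 ± 0.36 had an adjusted p of 0.13.

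The REV-ERB genes and Dbp, which read the activity of the ARNTL pair, did not pass in DEN livers. Nr1d1 stood at 76.5, 37.3 and 18.1 CPM in N1, N3 and N12 and at 31.5, 23.9 and 15.2 CPM in the DEN rats. The normal rats alone differed by more than 4-fold, and the log2 fold change of -0.87 ± 0.47 had an adjusted p of 0.16. Nr1d1 overlaps Thra, a thyroid hormone receptor gene, by 1059 bases in the authors' file; the use of strand in counting is not given in the sources used here, so reads of the overlap cannot be told apart, though Thra had 1966 counts in all 9 rats together. Nr1d2, the partner of Nr1d1 with a like role, ran from 53.7 to 127 CPM in normal and from 50.4 to 68.3 CPM in DEN rats, with a log2 fold change of -0.63 ± 0.30 and an adjusted p of 0.12. With each rat left out, the log2 fold change ran from -1.25 to -0.24 for Nr1d1 and from -0.92 to -0.36 for Nr1d2. The values of -1.25 (adjusted p = 0.036) and -0.92 (adjusted p = 0.017) were those without N12, where 37.8% of all genes passed. N12 was the normal rat lowest in both genes and was singled out by these same values, so these p-values do not show a fall. Dbp, a D-box activator that follows the clock closely, stood at 23.3, 11.1 and 9.54 CPM in normal and 19.5, 26.6 and 10.6 CPM in DEN rats; its groups overlapped, and the log2 fold change was 0.39 ± 0.41 (adjusted p = 0.46).

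Which of the genes passed in DEN livers depended on the scaling. With library totals, Arntl stayed lower at a log2 fold change of -0.71 (adjusted p = 0.032), while Clock at -0.18 (adjusted p = 0.43), Per1 at -0.97 (adjusted p = 0.070) and Cry1 at -0.34 (adjusted p = 0.28) no longer passed. Per3 at 1.62 (adjusted p = 0.0030) and Dbp at 1.19 (adjusted p = 0.021) then passed as higher, so the split was 2 higher and 1 lower in place of 0 and 4. Of all genes tested, 63.7% passed with library totals, a larger share than the 3 of 10 clock genes. Arntl was thus the only one of the 10 called in the same direction under both scalings, and also under DESeq2 and upper quartile factors. Per deposited FPKM, the authors' value per transcript length and library total, Arntl stood at 11.2 ± 1.25 (SD, n = 3) in normal and 6.82 ± 2.08 in DEN rats, and Clock at 5.16 ± 0.380 and 4.54 ± 0.733.

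**Figure D2:**
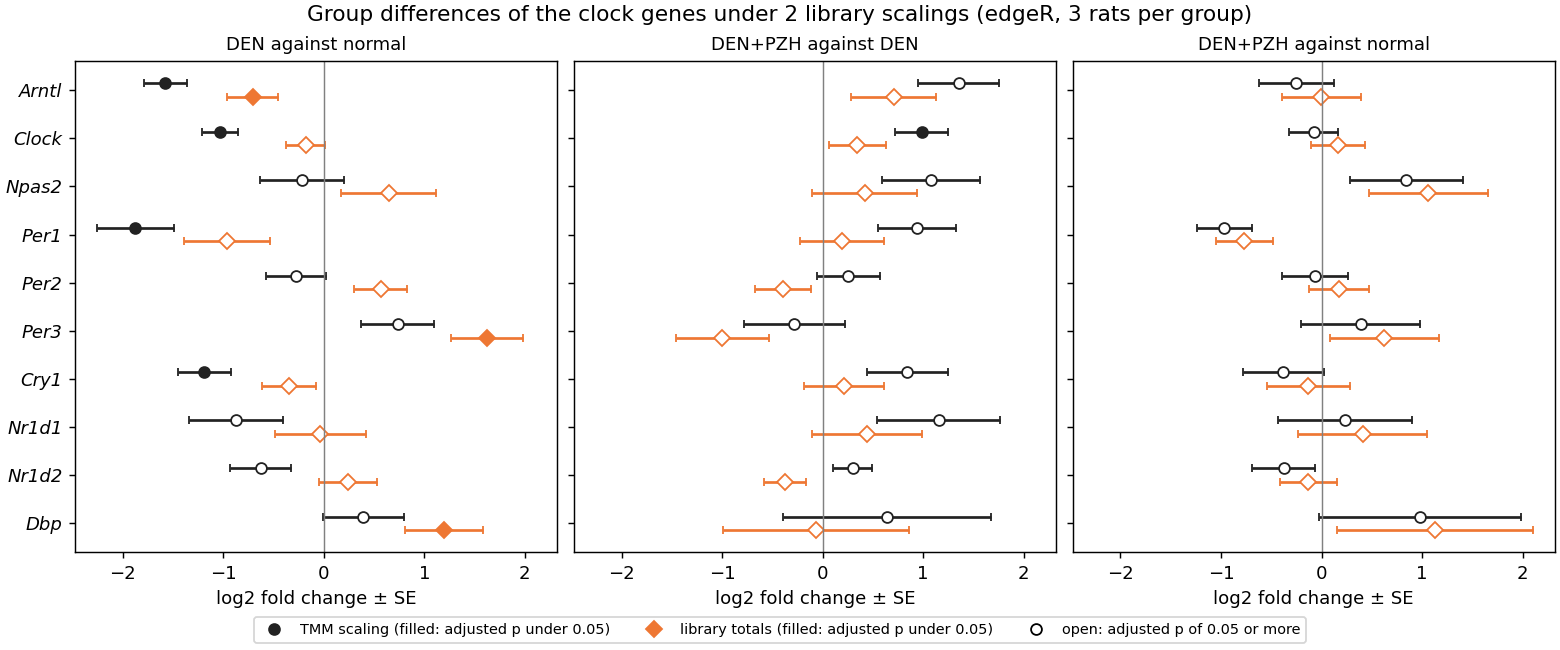
Log2 fold changes of the 10 clock genes with their standard errors in the 3 comparisons of groups (DEN+PZH is the PZH administration group), with TMM scaling and with library totals; filled points passed at an adjusted p under 0.05. With TMM scaling the filled points are 4 in DEN against normal, 1 in PZH against DEN and 0 in PZH against normal.

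In PZH administration livers, Clock was the gene that rose against DEN livers, and the other 9 did not pass. It stood at 42.8, 63.6 and 82.7 CPM in G27, G28 and G42, all above the DEN rats, and the log2 fold change was 0.98 ± 0.26 (adjusted p = 0.035). In this comparison 19.1% of the 14272 genes tested passed, 8.72% of those tested as higher and 10.3% as lower. The log2 fold change was positive for 9 of the 10 genes, with a median of 0.89 beside 0.01 for all genes. At an unadjusted p under 0.05 there were 3 of the 10 (34.9% of all genes). The groups did not overlap for 2 of the 10, beside 40.9% of all genes. With any 1 of G28, G42, M13, M17 or M24 left out, Clock did not pass, in fits where 1.87% to 22.6% of all genes did. Its log2 fold change was 0.76 to 1.2 with each rat left out. With library totals it was 0.34 (adjusted p = 0.33).

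Arntl came next, with a log2 fold change of 1.35 ± 0.41 and an adjusted p of 0.051. Its levels were 15.3 CPM in G27, 44.5 CPM in G28 and 48.0 CPM in G42. G28 and G42 lay at the level of the normal rats, and G27 lay among the DEN rats. Npas2 showed the same order of rats, at 4.52, 10.2 and 20.4 CPM, with a log2 fold change of 1.08 ± 0.49 (adjusted p = 0.16). Cry1 was at 9.25, 29.6 and 15.1 CPM (log2 fold change 0.84 ± 0.40, adjusted p = 0.18). Per1 was at 31.0, 19.9 and 19.6 CPM, above every DEN rat, with a log2 fold change of 0.94 ± 0.38 (adjusted p = 0.12). Nr1d2 was even across these rats, at 85.0, 64.4 and 70.3 CPM, with a log2 fold change of 0.30 ± 0.19 (adjusted p = 0.31). Per2 at 25.5, 21.8 and 12.8 CPM spanned the whole range of the DEN rats (log2 fold change 0.26, adjusted p = 0.60).

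In Nr1d1, Per3 and Dbp the rat with low Arntl was the high one. Nr1d1 stood at 104 CPM in G27 and at 16.3 and 33.0 CPM in G28 and G42, and Per3 at 22.8 CPM beside 7.44 and 4.98 CPM. Dbp stood at 77.1 CPM in G27, from 1808 counts, and at 4.73 and 3.27 CPM in G28 and G42, from 68 and 46 counts. G27 was the highest of all 9 rats in Nr1d1, Per3 and Dbp, while G28 and G42 were the lowest of all 9 in Dbp. The log2 fold changes against DEN were 1.15 ± 0.61 for Nr1d1 (adjusted p = 0.22), -0.28 ± 0.50 for Per3 (adjusted p = 0.72) and 0.64 ± 1.04 for Dbp (adjusted p = 0.70). The group mean of Dbp, 28.4 CPM ± 42.2 (SD, n = 3), was thus a level that no rat of the group had.

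Without G27, 5 of the 10 clock genes passed in PZH against DEN livers, where 14.9% of all genes tested did. Arntl, Clock and Npas2 were then higher, with log2 fold changes of 1.72, 1.2 and 1.47, and Per3 and Dbp were lower, with -1.22 and -2.22. G27 was singled out by its own clock gene values, so these calls do not show a difference between the groups. With G28 or G42 left out, 0 passed, beside 7.94% and 8.22% of all genes. With M13, M17 or M24 left out, 0 passed as well, beside 1.87%, 22.6% and 5.0% of all genes. G27 differed from its group in other genes too: 4.45% of 14479 genes, and 5 of the 10 clock genes, lay more than 2-fold beyond the nearest rat of the group in G27. Those 5 were Dbp (13.6-fold above), Nr1d1 (3.08-fold above), Per3 (2.82-fold above), Arntl (2.79-fold below) and Npas2 (2.02-fold below), on the scale of CPM + 1. The other 8 rats had 0 to 2 clock genes that far out, among 0.546% to 3.51% of all genes. G27 was also the deepest library; TMM-scaled CPM take the total into account, and the part of depth in these differences was not tested.

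**Figure D3:**
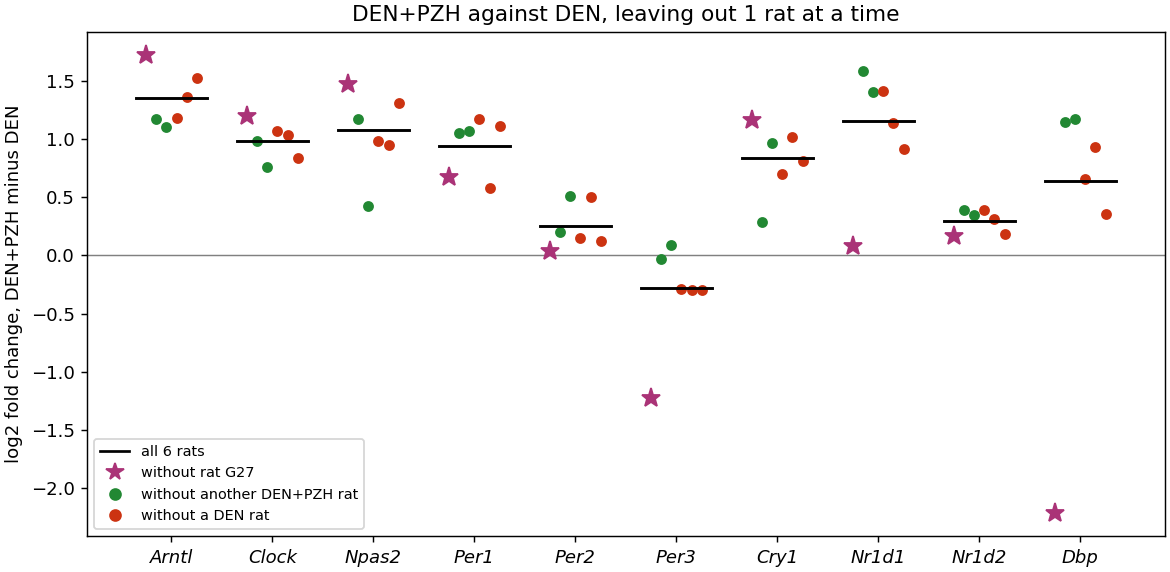
Log2 fold changes of the clock genes in PZH administration (DEN+PZH) against DEN livers: lines show all 6 rats and points the fit with 1 rat left out. The value without G27 stands apart for Dbp (-2.22) and Per3 (-1.22) on the lower side and for Arntl (1.72) and Npas2 (1.47) on the upper side.

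Against normal livers, 0 of the 10 clock genes passed in PZH administration livers, where 5.21% of the 13348 genes tested did, 4.07% as higher and 1.15% as lower. At an unadjusted p under 0.05 there was 1 of the 10 (18.5% of all genes), and DESeq2 called 1; both were Per1. Per1 was lower in every G rat than in every normal rat, with a log2 fold change of -0.97 ± 0.27 (adjusted p = 0.083), and it was the only 1 of the 10 whose groups did not overlap, beside 24.2% of all genes. The other log2 fold changes were -0.25 for Arntl (adjusted p = 0.80), -0.08 for Clock (0.91), 0.84 for Npas2 (0.48), -0.07 for Per2 (0.95) and 0.39 for Per3 (0.80). Those of the rest were -0.38 for Cry1 (0.69), 0.23 for Nr1d1 (0.91), -0.38 for Nr1d2 (0.59) and 0.98 for Dbp (0.68). Without G27, Per1 at -1.23 (adjusted p = 0.022) and Dbp at -1.86 (adjusted p = 0.028) passed as lower, where 9.73% of all genes passed. G27 was the highest G rat in both genes and was singled out by its clock gene values, so these p-values do not show a fall. A p that misses the threshold in groups of this spread does not show that the levels were alike.

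At the study's own thresholds, which ask for a log2 fold change beyond 2 in either direction and an unadjusted P under 0.001, 0 of the 10 clock genes were counted in any comparison. Of all genes tested, 12.3% met them in DEN against normal, 2.43% in PZH against DEN and 2.32% in PZH against normal. At an unadjusted p under 0.05 alone there were 4, 3 and 1 clock genes in these comparisons (53.6%, 34.9% and 18.5% of all genes), and DESeq2 also counted 0 at the study's thresholds.

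Ratios of clock genes within a rat do not depend on the scaling of the libraries, and they were taken for pairs that peak at opposite times. The log2 ratio of Arntl to Dbp was 0.79, 1.90 and 2.29 in N1, N3 and N12 and -0.88, -0.87 and 0.71 in M13, M17 and M24. It was lower in every DEN rat than in every normal rat. In the PZH administration rats it was -2.34 in G27, 3.23 in G28 and 3.87 in G42, so the lowest and the highest ratio of all 9 rats were both in this group. From the lowest to the highest rat the ratio changed by 74.0-fold in the PZH administration group, by 2.84-fold in normal and by 3.0-fold in DEN rats. The log2 ratio of Arntl to Nr1d1 was -0.93, 0.15 and 1.37 in normal, -1.57, -0.71 and 0.18 in DEN and -2.76, 1.44 and 0.54 in PZH administration rats. That of Npas2 to Per3 was 0.15, -2.40 and 0.82 in normal, -1.61, -1.69 and -1.0 in DEN and -2.33, 0.45 and 2.03 in PZH administration rats. The groups overlapped in both of these pairs. In each of the 3 pairs, G27 was below G28 and G42.

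**Figure D4:**
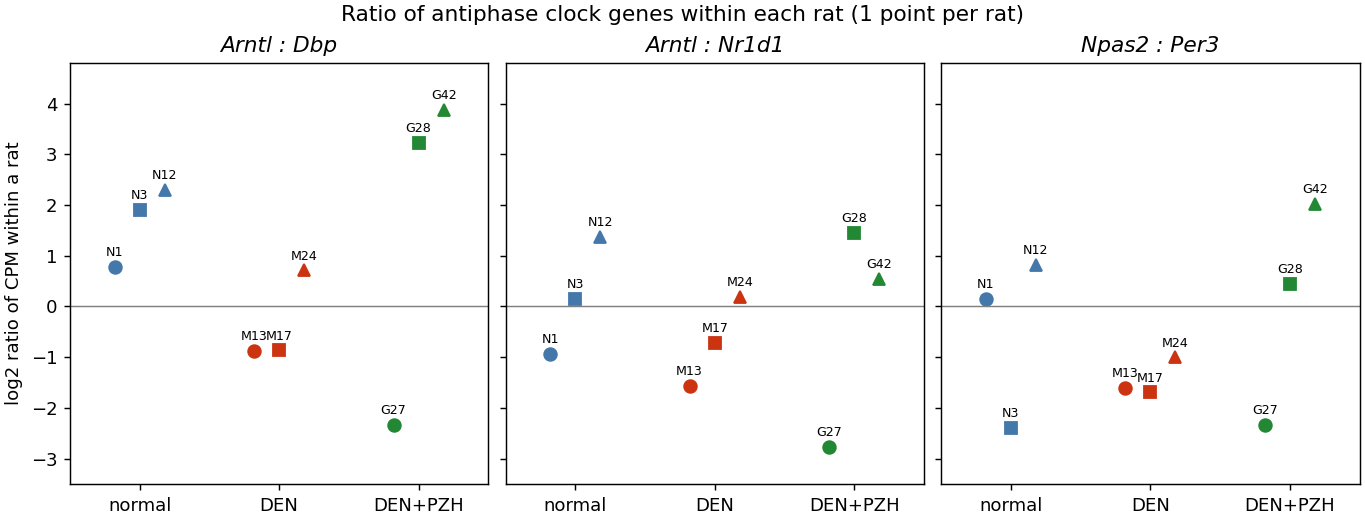
Log2 ratios of Arntl to Dbp, Arntl to Nr1d1 and Npas2 to Per3 within each rat, by group (DEN+PZH is the PZH administration group); points are rats. The Arntl to Dbp ratio runs from -2.34 in G27 to 3.87 in G42, while normal rats lie between 0.79 and 2.29 and DEN rats between -0.88 and 0.71.

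The spread of the clock genes between rats of a group was set beside that of all genes. The SD of log2(CPM + 1) over the 3 normal rats had a median of 0.540 over the 10 clock genes and 0.266 over the 14479 genes kept in all 9 rats. It was 0.315 beside 0.214 in DEN rats and 0.840 beside 0.283 in PZH administration rats. Clock genes above the line that 90% of genes lie under numbered 5 of 10 in normal, 2 of 10 in DEN and 6 of 10 in PZH administration rats. With library totals the DEN values changed: the median SD was 0.310 beside 0.283 for all genes, with 5 of 10 clock genes over that median in place of 9, and 1 above the 90% line. The SD of Dbp in PZH administration rats, 2.31, was larger than that of 99.9% of genes, and that of Nr1d1, 1.31, than that of 99.3%. Arntl and Clock were even in normal rats, with SDs of 0.114 and 0.061, larger than those of 14.4% and 5.14% of genes. Per3 was even in DEN rats, with an SD of 0.030 (larger than that of 1.91% of genes), and Nr1d2 in PZH administration rats, with 0.201 (31.2%). These shares are descriptions over 3 rats a group.

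**Figure D5:**
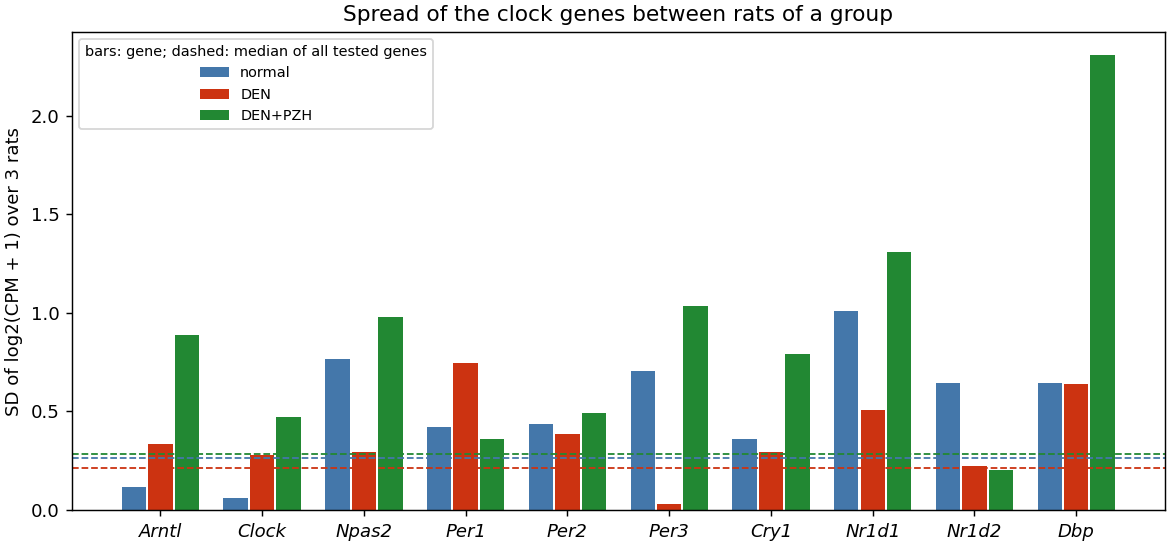
SD of log2(CPM + 1) between the 3 rats of a group for each clock gene (bars), with dashed lines at the median over all 14479 genes kept. Dbp in PZH administration rats (DEN+PZH, 2.31) has the highest bar, and Per3 in DEN rats (0.030) the lowest.

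Compared per transcript length, the order of the clock genes in normal liver began with Nr1d1 at 13.4 FPKM ± 9.39 (SD, n = 3), Nr1d2 at 12.2 ± 4.43 and Arntl at 11.2 ± 1.25, which did not differ beyond their spread. Per1 at 8.95 ± 3.01, Cry1 at 6.19 ± 1.69 and Clock at 5.16 ± 0.380 FPKM followed. Dbp at 3.48 ± 1.88 and Per2 at 2.79 ± 0.734 FPKM overlapped, and Npas2 at 1.21 ± 0.639 and Per3 at 0.859 ± 0.436 FPKM were lowest. In DEN livers Nr1d2 at 14.4 ± 2.29 and Nr1d1 at 13.1 ± 4.70 FPKM led. Dbp at 7.94 ± 2.51 and Arntl at 6.82 ± 2.08 FPKM came next and overlapped. With M13 or M17 left out, Arntl was above Dbp. In PZH administration livers the highest mean was that of Nr1d1, at 17.7 FPKM ± 15.3, and it rested on G27 at 35.1 FPKM. Without G27, Arntl at 14.5 and Nr1d2 at 10.6 FPKM stood above Nr1d1 at 9.07 FPKM. Npas2 and Per3 had the lowest means in all 3 groups, in either order; without G27, Dbp at 1.14 and Per3 at 0.731 FPKM were lowest in PZH administration livers.

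Other parts of the clock were read from a list of 19 genes (the ROR receptors, the D-box factors, kinases and ubiquitin ligases), of which 17 were tested in both comparisons with DEN livers and 16 in the last. In DEN against normal livers 2 rose and 5 fell, where 25.3% of all genes tested passed as higher and 20.5% as lower. The D-box repressor Nfil3 fell from 91.3 to 25.1 mean CPM, a log2 fold change of -1.85 (adjusted p = 0.0028), and the D-box activators Hlf (-1.61, adjusted p = 0.023) and Tef (-0.70, adjusted p = 0.046) fell as well. Rora, an activator of Arntl, had a log2 fold change of -0.91 (adjusted p = 0.029). Bhlhe41, a repressor that competes for E-boxes, rose by 2.24 (adjusted p = 0.0055). Its mean went from 0.392 CPM in normal rats, near the level of 3 counts, to 1.87 CPM in DEN rats. The kinase Csnk1e, which marks PER proteins for decay, rose by 0.90 (adjusted p = 0.0038). Csnk1d, its close relative, fell (-0.51, adjusted p = 0.045). With library totals 8 of the 17 passed as higher and 1 as lower, beside 63.7% of all genes in either direction. Of the 17, 7 turned sign, Csnk1d and Tef among them. In PZH against DEN livers Nfil3 alone passed as higher (log2 fold change 1.18, adjusted p = 0.032), with 0 lower, beside 19.1% of all genes. With library totals 0 passed as higher and 4 as lower, beside 43.8% of all genes. In PZH against normal livers 0 passed (5.21% of all genes), with 2 at an unadjusted p under 0.05 (18.5%) and 0 by DESeq2 (6.82%).

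Genes of liver known to follow the clock were read from a list of 15, of which 14 were tested; Elovl3 was listed at 0 counts. In DEN against normal livers 10 fell and 1 rose, with a list median of -1.44. Of all genes tested, 20.5% passed as lower and 25.3% as higher. Noct, a rhythmic phosphatase also called nocturnin, went from a mean of 47.7 to 3.55 CPM (log2 fold change -3.73 ± 0.48, adjusted p = 0.00062), and Usp2, a rhythmic deubiquitinase, from 43.2 to 4.67 CPM (-3.20 ± 0.50, adjusted p = 0.0015). Por, the electron donor of the cytochromes P450, fell by 2.07 on the log2 scale (adjusted p = 0.0016). In PZH against DEN livers 4 rose and 1 fell, where 8.72% of all genes passed as higher and 10.3% as lower. Usp2 had a log2 fold change of 2.16 (adjusted p = 0.016), Cyp7a1, the rate-limiting enzyme of bile acid synthesis, of 2.02 (adjusted p = 0.012) and Ppara of 1.23 (adjusted p = 0.024). In PZH against normal livers 0 of the 14 passed (5.21% of all genes), with 5 at an unadjusted p under 0.05 (18.5%) and 4 by DESeq2 (6.82%). With library totals the counts in DEN against normal were 3 higher and 6 lower, beside 63.7% of all genes in either direction. Those in PZH against DEN were 2 and 2, beside 43.8%.

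Markers of cell types also differed between the groups. The summed level of 8 hepatocyte markers was 158000 to 167016 CPM in normal, 32009 to 74176 CPM in DEN and 127553 to 166280 CPM in PZH administration rats. Most of that sum was Alb and Tf. Alb had means of 94904.7 CPM in normal and 21962.5 CPM in DEN rats, and Tf of 36445.9 and 18252.1 CPM. Of the 8 markers, 4 fell in DEN livers, where 20.5% of all genes tested passed as lower and 25.3% as higher. Apoa1 (log2 fold change -0.30, adjusted p = 0.55), Serpina1, Cps1 and Tf did not pass. The 5 cholangiocyte markers, all higher in DEN than in normal livers, summed to 13 to 20.8, 197 to 720 and 74.0 to 87.2 CPM in the same order; of these, Krt7 was at 0 counts in N1 and N3. The 7 stellate cell and myofibroblast markers, all higher as well, summed to 170 to 309, 1027 to 3168 and 577 to 693 CPM. Of 6 macrophage markers 2 were lower in DEN livers, of 4 endothelial markers 1 was higher and 2 were lower, and of 3 lymphocyte markers 1 was higher. With library totals 3 macrophage markers were higher and 1 lower, and 1 endothelial marker was higher and 0 lower, with Lyve1 turned in sign. Then 3 lymphocyte markers were higher, 4 hepatocyte markers passed as lower and all cholangiocyte and myofibroblast markers as higher. Of all genes tested, 63.7% passed in either direction with that scaling. Among the PZH administration rats macrophage markers summed to 223 to 516 CPM, endothelial markers to 261 to 380 CPM and lymphocyte markers to 1.07 to 4.66 CPM. The part of this makeup in the lower Arntl, Clock, Per1 and Cry1 of DEN livers and in the differences between PZH administration rats was not tested.

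The genes with profiles most like those of Arntl and Dbp were found by the root mean square difference of log2(CPM + 1), each gene centred on its own mean over the 9 rats, among 9426 genes. For Arntl these were Xkr9 (0.276), Clpx (0.285), Gphn (0.308), Hsd17b12 (0.324) and Chka (0.335), beside a root mean square of 0.797 for Arntl about its own mean. For Dbp they were Rpl36 (0.659), Hsd17b2 (0.663), Pdap1 (0.675), Wfdc21 (0.730) and Rgs3 (0.743), beside 1.19 for Dbp itself. Dbp was thus followed less closely than Arntl. None of these genes was in a list of clock genes, and reads of the ribosomal protein gene Rpl36 may be shared with near-identical copies. In each gene listed for Dbp, G27 stood above G28 and G42, as it did in Dbp. Rpl36 was at 54.0 CPM in G27 beside 10.1 and 9.04 CPM in G28 and G42. The part of G27 in this likeness was not tested.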

How the data were processed

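The authors sequenced liver mRNA of 9 rats and deposited 1 table, whose count columns hold whole reads per gene and rat, not normalized. In the deposited FPKM columns, the same reads are divided by transcript length and library total. The table's fold changes, P and Q columns are the authors' comparisons and were not used. The submitters' processing notes name fastp, HISAT2 2.1.0, StringTie 1.3.3b and edgeR 3.30.3; the genome build is not given in the sources used here.

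In R 4.3.3, edgeR 4.0.16 fitted the 6 rats of each comparison without covariates (filterByExpr, TMM, quasi-likelihood test, two-sided), with Benjamini-Hochberg adjustment over all genes tested and a call at an adjusted p under 0.05. CPM per rat used TMM factors over all 9 rats. Ratios, spreads and likeness carry no test. The alternatives were DESeq2 1.42.0, library totals, upper quartile factors, no filter, a minimum of 10 counts per rat, a joint fit of the 3 groups and each rat left out. The steps were tested on simulated data. Counting intervals and floors cover counting error only.

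All 10 clock genes were named; from each other list of genes, the rule named the 4 genes that passed with the largest absolute log2 fold changes in each comparison and those at the study's thresholds, and Csnk1e, Tef and Csnk1d were named after their values were seen. Cell type markers were counted, and those named were named after their values were seen. Some genes of the lists that the rule selects are counted but not reported by name here. The clock genes and lists were chosen with earlier results of these data known.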

Additional observations from a re-analysis of the deposited data

How the results depend on the processing

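The count of clock genes called in DEN against normal livers was 4, beside 45.8% of all genes tested. It lay between 3 and 6 under all alternatives run, where 31.8% to 63.7% of all genes passed. The 3 with library totals were 2 higher and 1 lower, in place of 0 and 4. In PZH against DEN livers the count was 1 (19.1% of all genes). It became 2 with DESeq2 (18.3%), 2 without a filter (12.6%) and 2 with all 3 groups in one fit (20%). It was 0 with library totals (43.8%) and 0 with upper quartile factors (19.8%). With each rat left out it ran from 0 to 5. It was 5 without G27 (14.9% of all genes called) and 0 without G28, G42, M13, M17 or M24 (1.87% to 22.6%). In PZH against normal livers the count was 0 (5.21%) and became 1 with DESeq2 (6.82%), where Dbp received no adjusted p. With each rat left out it ran from 0 to 2, with 2 without G27 (9.73% of all genes). As G27 was singled out by its clock gene values, neither the 5 nor the 2 shows a difference between groups. At the study's thresholds the count was 0 under every alternative. With library totals, log2 fold changes turned sign for Npas2 (0.64), Per2 (0.57) and Nr1d2 (0.24) in DEN against normal, for Per2 (-0.39), Nr1d2 (-0.37) and Dbp (-0.065) in PZH against DEN, and for Clock (0.16) and Per2 (0.17) in PZH against normal; with upper quartile factors Per2 (0.019) turned in the last. With each rat left out, the sign changed within -0.59 to 0.053 for Npas2 in DEN against normal, within -2.22 to 1.17 for Dbp and -1.22 to 0.092 for Per3 in PZH against DEN, and in PZH against normal within -0.52 to 0.11 for Arntl, -0.33 to 0.13 for Clock, -1.86 to 1.5 for Dbp, -0.84 to 0.85 for Nr1d1, -0.30 to 0.17 for Per2 and -0.54 to 0.97 for Per3. Clock in PZH against DEN had 0.88 with upper quartile factors (adjusted p = 0.050) and 0.76 to 1.2 with each rat left out. Per3 in DEN against normal passed without N3 (1.28, adjusted p = 0.0059). N3 was the normal rat highest in Per3 and was singled out by these same values, so this p-value does not show a rise. Beyond the rats left out, the cause of these shifts was not tested. Of the differences in log2 ratio within a rat, with each rat left out, Arntl to Dbp (-1.21 to 1.89), Arntl to Nr1d1 (-1.31 to 0.80) and Npas2 to Per3 (-0.47 to 1.72) turned sign in PZH minus normal and Arntl to Nr1d1 (-0.41 to 1.69) in PZH minus DEN; the other 5 kept theirs. With library totals, 5 of 10 clock genes in DEN rats, in place of 9, had an SD over the median of all genes. No paired analysis was possible because the groups share no replicate numbers. The lowest count of any clock gene in any rat was 33 (Npas2 in N3), where counting error is largest.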

Other observations

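Genes that follow feeding, fasting and glucocorticoids, which also vary with the hour, were read from lists of 8, 8 and 5 genes. Of all genes tested, 45.8% passed in DEN against normal, 19.1% in PZH against DEN and 5.21% in PZH against normal. In DEN against normal livers 7 of the 8 fasting genes fell, led by Fgf21, a fasting hormone of the liver (log2 fold change -4.09, adjusted p = 0.014), and G6pc, the last step of glucose release (-3.19, adjusted p = 0.00069). Pdk4 (-3.06), Angptl4 (-2.89) and Pck1 (-2.66) fell as well. In normal livers Fgf21 stood at 279 CPM in N1 and at 11.4 and 24.0 CPM in N3 and N12, and N1 was also the normal rat with the highest Nr1d1 and Dbp. Of the 8 feeding genes 4 fell and 1 rose in DEN livers. Elovl6, a fatty acid elongase, rose by 3.40 (adjusted p = 0.00043). Its mean went from 0.398 CPM in normal rats, near the level of 3 counts, to 4.19 CPM in DEN rats. Thrsp (-2.87) and Scd (-2.56) were among those that fell. In PZH against DEN livers 6 of the 8 fasting genes and 7 of the 8 feeding genes rose together. Scd, a fatty acid desaturase, stood at a log2 fold change of 3.41 (adjusted p = 0.014), Thrsp at 3.03 and Pnpla3 at 2.06; the fasting genes Pck1, Pdk4 and G6pc stood at 1.81, 1.70 and 1.53. In PZH against normal livers 4 fasting genes fell, G6pc (-1.69), Angptl4 (-1.47), Pdk4 (-1.40) and Cpt1a (-1.05), and 1 feeding gene, Fasn, rose (0.99, adjusted p = 0.031).

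Of the 5 glucocorticoid response genes, 3 fell in DEN livers. Zbtb16 had a log2 fold change of -3.28 (adjusted p = 0.00047) and Dusp1 of -3.08 (adjusted p = 0.00079), and Tsc22d3 fell too (-1.80). Zbtb16 and Dusp1 rose in PZH against DEN livers, by 2.76 (adjusted p = 0.0087) and 2.25 (adjusted p = 0.010). In PZH against normal livers 0 of the 5 passed, with 2 at an unadjusted p under 0.05 (18.5% of all genes) and 1 by DESeq2 (6.82%). With library totals, 7 fasting genes were called lower in DEN livers, feeding genes 1 higher and 3 lower (list median -0.04 in place of -0.88) and glucocorticoid genes 1 higher and 3 lower. Of all genes tested, 63.7% passed there in either direction. In PZH against DEN livers that scaling gave 5 fasting genes higher, 4 feeding genes higher and 1 lower, and 2 glucocorticoid genes higher and 1 lower, beside 43.8% of all genes. In PZH against normal livers it gave 3 fasting genes lower, 3 feeding genes higher and 0 glucocorticoid genes, beside 6.81% of all genes.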
